A study of Homo sapiens with 6 samples.

Results

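The 4 chromosome blocks described here are stretches of 10 Mb in which nearly every listed gene had a lower RNA level in SETD8 knockout cells than in control cells. They are 10 to 20 Mb of chromosome 16, on its short arm, and 110 to 120 Mb of chromosome 10, 120 to 130 Mb of chromosome 9 and 60 to 70 Mb of chromosome 17, each on a long arm (hg38). A member is a row of the deposited table whose gene start, the lower coordinate on either strand, lies in one of these stretches and whose mean over the 6 libraries was at least 50 normalized read counts. There were 181 members of 7983 listed genes, with 30 on chromosome 16, 34 on chromosome 10, 70 on chromosome 9 and 47 on chromosome 17. The blocks were picked because of the direction of their genes in these same libraries, so the direction is a property of the choice and no test of it is given.

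The cells were Kasumi-1, an established line of human acute myeloid leukaemia with the t(8;21) rearrangement. The SETD8 knockout group had the gene disrupted with CRISPR/Cas9 (3 libraries, labelled sgSETD8), and the control group received non-targeting guide RNA and is labelled wild type (3 libraries, labelled sgNT). The titles number the libraries from 1 to 3 in each group and do not say whether the numbers stand for different guides. Both groups came from the same line and were grown in the same medium. The labels do not say whether the knockout cells were a pool or 1 clone, or whether the numbered libraries were separate cultures, so spread between libraries may be technical.

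SETD8, whose current symbol is KMT5A, puts a single methyl group on a lysine of histone H4, a mark tied to chromosome compaction, cell division and genome stability. Neighbouring genes share one stretch of DNA with its copy number and its chromatin, while most neighbours have unrelated functions. Neither DNA copy number nor chromatin is measured in the table, and their part in these values was not tested. KMT5A itself, on chromosome 12, read 880, 933 and 939 normalized counts in the knockout libraries, against 1191, 1212 and 1255 in the control libraries.

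The largest p in the authors' deposited table was 0.049998, before adjustment, so few genes near a log2 fold change of 0 are in it. Genes outside it were not analysed here. Reads in listed genes ranged from 11721821 to 12557974 in knockout libraries and from 10966349 to 11690249 in control libraries. The blast markers CD34, KIT, CD33, MPO and RUNX1T1 were all listed, and their levels differed between groups. MPO averaged 1541 in knockout and 12254.5 in control, and CD33 averaged 990.0 in knockout and 435 in control. KIT averaged 43551 in knockout and 60704 in control, CD34 7818 in knockout and 7153 in control, and RUNX1T1 3054 in knockout and 2760.4 in control. The part of such shifts in the values of the members was not tested. GP9, a platelet gene, averaged 6.12 in knockout and 0.330 in control. The markers CD3E and HBB were not in the table used here.

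Of the 181 members, 175 had a log2 fold change below 0 and 6 had one above 0. Among all 6788 genes with a mean of at least 50, 49.0% were below 0. By block, lower members numbered 30 of 30 (chromosome 16), 33 of 34 (chromosome 10), 67 of 70 (chromosome 9) and 45 of 47 (chromosome 17). In limma-trend, a linear model fitted over the whole table, 169 members were called lower and 5 higher at an adjusted p below 0.05. The same calls were made for 46.3% (lower) and 48.0% (higher) of all genes with that mean. In 167 members every knockout library lay below every control library, which held for 47.0% of all genes with that mean. These counts repeat what chose the blocks and support nothing further.

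The size of the change was moderate and similar in the 4 blocks. The median log2 fold change, knockout over control, was -0.66 on chromosome 16, -0.75 on chromosome 10, -0.64 on chromosome 9 and -0.66 on chromosome 17. As ratios these medians are 1.58, 1.69, 1.55 and 1.58-fold lower levels in the knockout cells. The 6607 other genes with a mean of at least 50 had a median of 0.18. The authors' own log2 fold changes, copied from the authors' deposited table, had medians of -0.66, -0.76, -0.64 and -0.66 for the blocks in that order.

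Within a block the values were spread moderately around that size. The distance between the quartiles, the interquartile range, was 0.35 on the log2 scale on chromosome 16, 0.42 on chromosome 10, 0.51 on chromosome 9 and 0.53 on chromosome 17, against 0.95 among all other genes. Much of that contrast comes from direction, since the 3150 other genes that were lower had a range of 0.44, against 0.47 for the 175 lower members. Few genes near 0 are listed, which may also widen the range of a set with both directions. The SD of the log2 fold change was 0.42 over lower members and 0.57 over the other lower genes. Of the lower members, 66 were less than 1.5-fold lower, 76 (43.4%) between 1.5 and 2-fold, 30 between 2 and 4-fold and 3 at least 4-fold. The share between 1.5 and 2-fold was 25.7% among the other lower genes. At least 2-fold lower were 33 members, 18.9% of the lower members, against 13.7% of the other lower genes. Over all 6788 genes, which include the higher ones, the share was 6.87%.

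**Figure D1:**
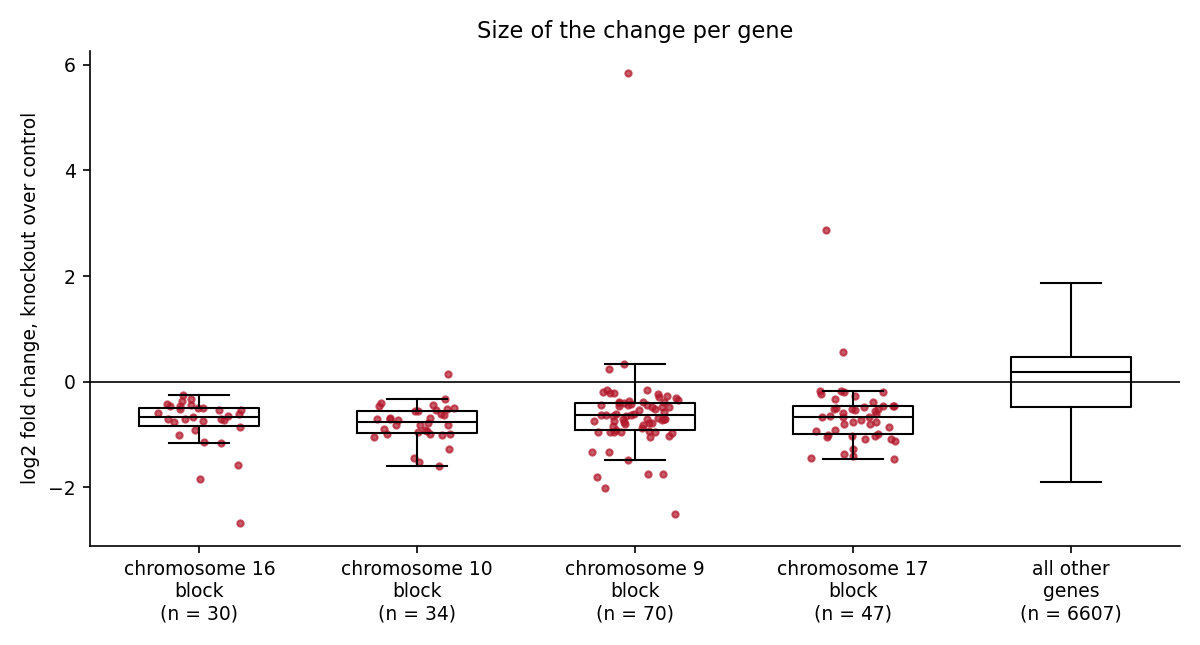
Log2 fold change of each gene, SETD8 knockout over control, for the members of the 4 blocks (points) and for the 6607 other genes with a mean of at least 50. Boxes span the quartiles with the median as a line, and whiskers reach the furthest value within 1.5 box lengths; the 4 member boxes lie below 0, with medians from -0.75 to -0.64, while the box of the other genes spans 0 with a median of 0.18.

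The 3 knockout libraries carried the shift to the same degree. For each library the median over members of log2(value + 1) minus the control mean was taken. On chromosome 16 it was -0.71, -0.61 and -0.64 in the knockout libraries, against -0.027, 0.0074 and 0.010 in the control libraries. On chromosome 10 it was -0.74, -0.82 and -0.79 in knockout, against 0.020, 0.0087 and -0.0050 in control. No block had overlapping groups, and the SD between knockout libraries was 0.038 to 0.053 in the 4 blocks. On chromosome 9 the knockout libraries stood at -0.66, -0.67 and -0.58, against -0.024, 0.0083 and 0.022 in control, and on chromosome 17 at -0.66, -0.68 and -0.59, against 0.019, -0.0085 and -0.012. Together the members took 1.64%, 1.67% and 1.71% of the listed normalized counts in knockout libraries, against 2.73%, 2.71% and 2.68% in control libraries.

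**Figure D2:**
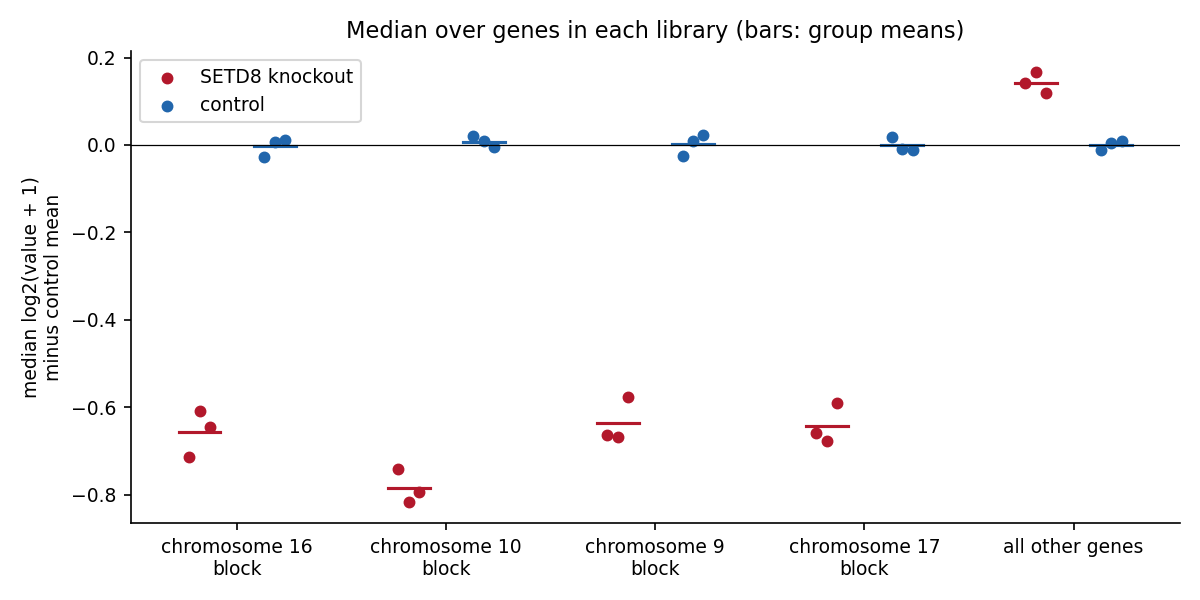
Median over genes of log2(value + 1) minus the control mean, for each of 3 SETD8 knockout and 3 control libraries (points) with group means (bars). In each block the knockout libraries lie between -0.82 and -0.58 and the control libraries near 0, while over all other genes the knockout libraries lie between 0.12 and 0.17.

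The lower levels ran through short and long genes, both strands and several kinds of transcript. Members with a deposited gene length under 5234 bases, the median of all 6788 genes, had a median log2 fold change of -0.60 (78 genes) and longer ones -0.70 (103 genes). In the other genes the same split gave 0.28 for 3316 short genes and -0.22 for 3291 long ones. Across members, Spearman's rho of log2 fold change with length was -0.19, close to the -0.18 over all other genes, and with mean level it was 0.35, against 0.10, where mean level and fold change share the same libraries. Genes are not independent replicates, so these are descriptions. Members on the plus strand had a median of -0.73 (81 genes) and those on the minus strand -0.62. The 13 members that are not protein-coding (long noncoding RNAs, antisense transcripts and pseudogenes) all had log2 fold changes below 0, the most negative being AC005332.6 on chromosome 17 at -1.45 and the least PKD1P6 on chromosome 16 at -0.43.

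The members have many unrelated roles, and lower members were the majority in each of 8 role lists written for these arms with earlier results known. A gene may stand in 2 lists, and 120 of the 181 members are in at least 1. Each of the 17 members on the list for the ribosome and translation was called lower, and their median was -0.52. By mean level RPL12 and EIF3A were among its leading genes, but the list also holds DDX5 and DDX42, RNA helicases that act in splicing, and the nucleoporin NUP188. Each of the 29 members for DNA repair, replication and chromatin was called lower, around a median of -0.74, among them SET, a histone chaperone, HELZ, a helicase, SMARCD2, a SWI/SNF remodeller subunit, and MED13 of the Mediator complex. That list is broad too, and its most negative member was CIITA, the activator of MHC class II genes, at -1.84. Of the 18 signalling members 17 were called lower and 0 higher, with a median of -0.80. Of the proteasome and ubiquitin members 13 of 14 were called lower, with a median of -0.62. The remaining lists had 24 of 25 called lower for membrane traffic and the endoplasmic reticulum, 8 of 8 for cytoskeleton, centrosome and mitosis, 4 of 6 for mitochondria and 4 of 6 for blood cell and immune surface genes, with medians of -0.62, -0.71, -0.36 and -0.77. PRDX3 on the mitochondria list was higher at 0.15 without a call, and CD79B on the blood cell and immune surface list was called higher at 2.87. As above, 46.3% of all genes with that mean were called lower, and the blocks were chosen by direction.

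On chromosome 16 the least-changed member was TXNDC11, a thioredoxin-domain protein of the endoplasmic reticulum, at a log2 fold change of -0.26, and no member was higher. RSL1D1, a nucleolar protein, lay at the block median with 2350, 2086 and 2042 normalized counts in knockout libraries, against 3568, 3347 and 3290.0 in control libraries. ZC3H7A, the zinc finger gene before it, lay at the median too, with a log2 fold change of -0.67. XYLT1, which starts the sugar chains of proteoglycans, stood furthest below with 117, 92.3 and 103 in knockout, against 646, 697 and 660.0 in control, a log2 fold change of -2.68. CIITA, the master activator of MHC class II genes, followed with 80.3, 74.5 and 85.9 in knockout, against 292.3, 284.9 and 292.3 in control. In both genes all knockout libraries were far below all control libraries. The other members among the 5 furthest down were RMI2 of the Bloom helicase complex, ERCC4, an endonuclease of nucleotide excision repair, and SNX29, a sorting nexin, with log2 fold changes of -1.58, -1.16 and -1.13. The members with the highest mean were ABCC1, a drug efflux pump, SMG1, a kinase of nonsense-mediated decay, and NOMO1, a membrane protein of the endoplasmic reticulum, at -0.49, -0.45 and -0.36. NOMO1, NOMO2, SMG1, RRN3, ABCC6 and PKD1P6 have near-identical copies on this arm, so their reads could have been split between copies and their values are uncertain.

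On chromosome 10 the median was marked by BAG3, a co-chaperone, and DUSP5, a phosphatase of the ERK pathway. BAG3 read 301, 293 and 250.3 in knockout libraries, against 446, 465 and 484 in control libraries, and DUSP5 had a log2 fold change of -0.78. EIF3A, the largest subunit of a translation initiation factor, had the highest mean of the block, with 6441, 6629 and 6933 in knockout, against 10991, 10422 and 10703 in control. SMC3, a core subunit of cohesin, read 1788, 1697 and 1617 in knockout, against 2599, 2535 and 2634 in control, a log2 fold change of -0.61. Groups did not overlap in any of these 3 genes. The members furthest down were ABLIM1, an actin-binding protein, MXI1, an antagonist of MYC, ADRA2A, an adrenergic receptor, GRK5, a kinase of G protein coupled receptors, and INPP5F, a phosphoinositide phosphatase. Their log2 fold changes were -1.59, -1.51, -1.45, -1.27 and -1.04, and MXI1 read 828, 745 and 782 in knockout, against 2162, 2219 and 2342 in control.

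On chromosome 9 the most abundant members were RPL12, a protein of the large ribosomal subunit, STOM, a membrane scaffold protein, and SET. RPL12 read 14222, 13158 and 11510.3 in knockout libraries, against 20707, 21241 and 21547 in control libraries, a log2 fold change of -0.71. STOM read 4733, 4484 and 4629.9 in knockout, against 12967, 12781 and 13013 in control, a log2 fold change of -1.49. In both, every knockout library lay below every control library, and STOM was lower by more than the lower quartile of its block, -0.91. SET stood at -0.43, and the 2 members closest to the median, DOLPP1 of dolichol metabolism and CIZ1, a nuclear zinc finger protein, at -0.63 and -0.64. The furthest down was TRAF1, an adaptor of tumour necrosis factor receptors, with 131, 162 and 159 in knockout, against 852, 929 and 795 in control. C5, a complement component, NEK6, a mitotic kinase, OLFML2A, an extracellular protein, and SH2D3C, a signalling adaptor, followed with log2 fold changes of -2.01, -1.80, -1.74 and -1.74. At the other end of the lower members stood MAPKAP1, a subunit of the mTORC2 complex, at -0.15 and ENG, the TGF-beta co-receptor endoglin, at -0.17, and neither was called.

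On chromosome 17 the median was marked by BPTF, a subunit of the NURF remodeller, and MAP3K3, a kinase of the MAP kinase cascade. MAP3K3 read 1525, 1699 and 1657 in knockout libraries, against 2380.0, 2623 and 2739 in control libraries. DDX5 read 11416, 11046 and 10605 in knockout, against 15542, 15587 and 14937 in control, with DCAF7 and DDX42 next in mean level and log2 fold changes of -0.48, -0.62 and -0.46 for the 3. None of these genes had overlapping groups. The 5 furthest down were ARSG, a lysosomal sulfatase, the long noncoding RNA AC005332.6, the pseudogene LRRC37A16P, SCN4A, a muscle sodium channel, and BCAS3. They spanned log2 fold changes from -1.46 to -1.27. LRRC37A16P belongs to a family of near-identical copies and its value is uncertain. AC005332.6 lies within LRRC37A16P on the opposite strand. Their reads could be shared if counting ignored the strand, so they may not be separate cases.

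The 6 members above 0 were ANGPTL2, PTGES2 and WDR34 on chromosome 9, CD79B and MILR1 on chromosome 17 and PRDX3 on chromosome 10. ANGPTL2, a secreted angiopoietin-like protein, read 135, 156 and 159.7 normalized counts in knockout libraries, against 8.18, 0 and 0.991 in control libraries. It had a log2 fold change of 5.84 (SE 0.56). With control counts this low, and 1 library at 0, the size of this value depends on the 1 added before the logarithm. CD79B, the signalling chain Ig-beta of the B cell receptor, read 550.3, 516 and 505 in knockout, against 60.3, 100.1 and 58.5 in control, a log2 fold change of 2.87 (SE 0.17). These 2 genes were well separated between groups, and both were low in control cells. MILR1, an inhibitory receptor of mast cells, read 425, 497 and 509 in knockout, against 296, 299 and 368 in control, a log2 fold change of 0.57.

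The other 3 exceptions differed little between groups. WDR34, an intermediate chain of the dynein motor of cilia, read 1480.0, 1577 and 1438 in knockout libraries, against 1123, 1144 and 1277 in control libraries. PTGES2, a prostaglandin E synthase, read 1191, 1061 and 1119 in knockout, against 904, 974 and 970.2 in control. PRDX3, the peroxiredoxin of mitochondria, read 2984, 2718 and 2525 in knockout, against 2488, 2491 and 2438 in control. In all 3 the groups did not overlap, with log2 fold changes of 0.34, 0.24 and 0.15, and PRDX3 was called only without knockout 3, of the settings run. PTGES2 lost its call without knockout 1, without control 1 and with upper-quartile scaling. The members on both sides of every exception were lower. PRDX3 lay between FAM45A and GRK5 at -0.40 and -1.27, ANGPTL2 between ZBTB34 and ZNF79 at -0.75 and -0.63, and PTGES2 between SLC25A25-AS1 and C9orf16 at -0.53 and -0.34. WDR34 lay between SPTAN1 and SET at -0.20 and -0.43, CD79B between SMARCD2 and SCN4A at -0.39 and -1.36, and MILR1 between TEX2 and POLG2 at -0.19 and -0.47.

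**Figure D3:**
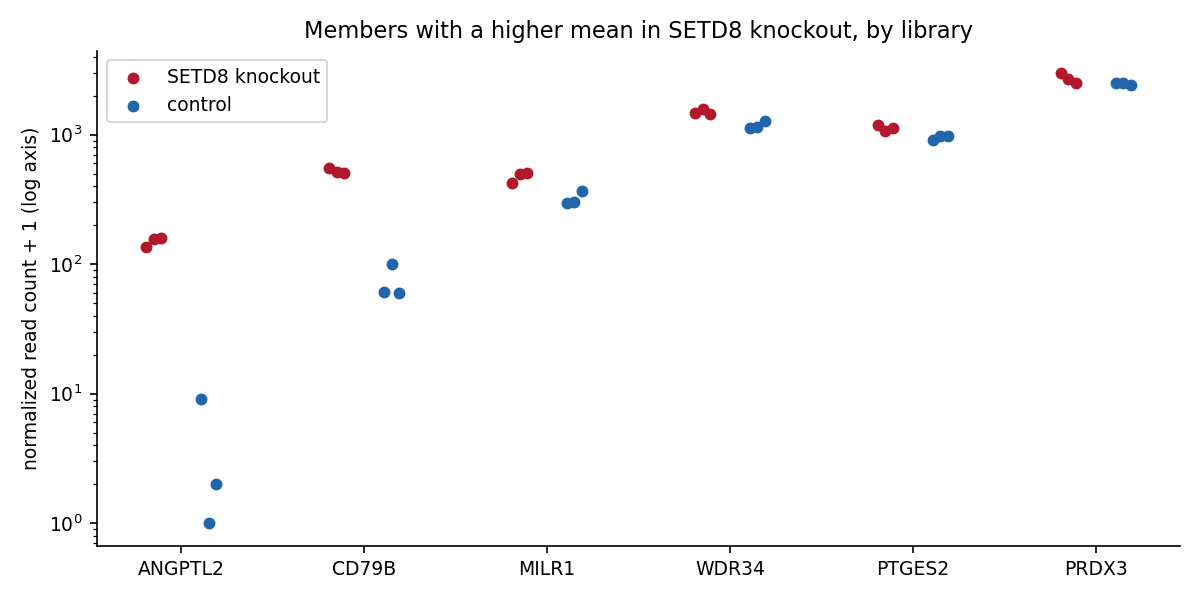
Normalized read count plus 1 (log axis) of the 6 members with a higher mean in SETD8 knockout, by library. ANGPTL2 and CD79B are separated widely between groups, and PRDX3 by the least, with 2525 as the lowest knockout and 2491 as the highest control count.

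The strand setting of the authors' read counting is unknown here, and 107 members overlap an annotated gene on the other strand. ANGPTL2 lies within RALGPS1 on the opposite strand, so part of its reads could belong to that gene. CD79B overlaps AC127029.3, a protein-coding gene on the same strand, which counting by strand would not separate, and its value is uncertain. WDR34 and SPTAN1, on opposite strands, only touch at their ends, but WDR34 also overlaps VTI1BP4 on the opposite strand. PRDX3, PTGES2 and MILR1 overlap no annotated gene. Of the 52 members with no overlap at all, 49 were lower, and the median of the 52 was -0.69, close to the -0.67 of all members.

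Promoter windows of RefSeq (GRCh38.p14), from 250 bases before to 50 bases after a gene's start, were found for 140 of the 181 members. The CG dinucleotide, which reads the same on both strands, was counted in each. Of 136 protein-coding members with a window, 123 (90.4%) had at least 10, against 73.0% of the windows of 15843 protein-coding genes, with medians of 27 and 22. Those 15843 genes were taken whatever their level in these cells, while members had a mean of at least 50. The share among other listed genes with that mean was not counted, so the gap cannot be read as a trait of the blocks. Lower members with under 10 CG had a median log2 fold change of -0.46 (13 genes) and those at or above 10 CG -0.67 (120 genes). The windows of the exceptions ANGPTL2 and PRDX3 are each followed by that of a lower neighbour among the members, to compare genes of opposite direction. The lower coordinates of these pairs lie 227 and 39.9 kb apart. ANGPTL2 and PRDX3 are on the minus strand, so their windows lie at their higher coordinates and these are not distances between windows. CG is in capitals, 5′ to 3′ on the gene's strand. ANGPTL2 holds 14 CG and its neighbour ZBTB34 42, and PRDX3 holds 18 and its neighbour GRK5 38. The exception PTGES2, not shown, holds 35 and its lower neighbour SLC25A25-AS1 3, so the order of exception and neighbour was not the same in the 3 pairs. A match of letters is a description only.
ANGPTL2: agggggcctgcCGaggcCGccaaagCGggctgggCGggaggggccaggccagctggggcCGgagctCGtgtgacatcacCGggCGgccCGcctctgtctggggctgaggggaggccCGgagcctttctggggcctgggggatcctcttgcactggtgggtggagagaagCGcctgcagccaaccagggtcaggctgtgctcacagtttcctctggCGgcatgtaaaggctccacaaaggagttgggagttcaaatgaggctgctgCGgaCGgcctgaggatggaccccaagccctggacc
ZBTB34: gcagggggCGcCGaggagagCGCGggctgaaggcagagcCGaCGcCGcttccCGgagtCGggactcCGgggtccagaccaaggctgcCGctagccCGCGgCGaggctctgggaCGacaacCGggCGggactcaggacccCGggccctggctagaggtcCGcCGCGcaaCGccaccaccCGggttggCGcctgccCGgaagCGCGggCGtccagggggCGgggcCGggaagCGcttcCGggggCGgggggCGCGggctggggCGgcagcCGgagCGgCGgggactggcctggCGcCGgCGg
PRDX3: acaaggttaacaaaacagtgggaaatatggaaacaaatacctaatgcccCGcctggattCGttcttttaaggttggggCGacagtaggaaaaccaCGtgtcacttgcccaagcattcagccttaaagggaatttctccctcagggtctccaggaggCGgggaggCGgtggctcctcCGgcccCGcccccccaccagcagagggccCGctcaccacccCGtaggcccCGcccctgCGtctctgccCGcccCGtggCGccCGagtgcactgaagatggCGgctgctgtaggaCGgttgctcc
GRK5: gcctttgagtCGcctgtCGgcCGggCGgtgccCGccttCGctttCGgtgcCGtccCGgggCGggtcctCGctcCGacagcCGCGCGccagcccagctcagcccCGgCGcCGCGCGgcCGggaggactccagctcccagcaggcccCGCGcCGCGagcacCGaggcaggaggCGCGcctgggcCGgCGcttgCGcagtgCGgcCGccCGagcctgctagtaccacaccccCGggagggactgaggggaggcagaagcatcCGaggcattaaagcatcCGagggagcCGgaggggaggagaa
These windows are chr9:127122586-127122885 (minus strand), chr9:126860389-126860688 (plus strand), chr10:119178763-119179062 (minus strand) and chr10:119207321-119207620 (plus strand).

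The 10 Mb limits did not mark a change of direction. The 2 genes with a mean of at least 50 on either side of every limit were all lower, inside and outside. Some lay several Mb from the limit: TRIM32 on chromosome 9 starts at base 116687302 and SLC39A11 on chromosome 17 at base 72645949. Before the start on chromosome 16 USP7 and C16orf72 had log2 fold changes of -0.46 and -1.04, and CIITA and DEXI just inside -1.84 and -0.61. At its end GDE1 and CCP110 inside stood at -0.46 and -0.86 and ACSM3 and THUMPD1 outside at -0.69 and -0.85. On chromosome 10 XPNPEP1 and ADD3 lay before the start at -0.31 and -0.90, followed inside by MXI1 and SMNDC1 at -1.51 and -0.90. MCMBP and SEC23IP closed that block at -0.68 and -0.54, with ATE1 and NSMCE4A beyond it at -1.08 and -0.59. On both chromosomes the 2 outer genes lay within the range of the members. On chromosome 9 TMEM268 and TRIM32 outside had -0.56 and -0.39 and CDK5RAP2 and FBXW2 inside -0.57 and -0.62, and at the end TOR1A and FNBP1 had -0.30 and -0.29 and GPR107 and FUBP3 -0.44 and -0.47. On chromosome 17 VMP1 and RPS6KB1 outside had -0.57 and -0.27 and HEATR6 and AC025048.2 inside -0.52 and -0.76, and at the end WIPI1 and PRKAR1A had -0.52 and -0.55 and SLC39A11 and COG1 -0.67 and -0.56.

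The blocks are therefore parts of longer runs, which were followed outward from the middle of each block to the first 2 neighbouring genes above 0. On chromosome 16 the run began with the first listed gene, POLR3K, a subunit of RNA polymerase III, at base 46407 and ended with GPT2, an alanine aminotransferase, at base 46931297. This run crossed the centromere into the long arm. It held 181 genes, 167 lower and 14 higher, and their median was -0.57. GPT2 stood at -0.65 and the next genes, NETO2 and LONP2, at 0.32 and 0.33. On chromosome 10 the run went from LZTS2 at base 100996618 to SCART1, the last listed gene, at base 133523558, with 94 of 97 genes lower and a median of -0.66. The genes before it, MRPL43 of the mitochondrial ribosome and TWNK, the mitochondrial DNA helicase, stood at 0.33 and 0.25, and LZTS2 at -0.50.

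The run on chromosome 9 was the longest and that on chromosome 17 the shortest of the 4. On chromosome 9 it crossed the centromere and ended with QSOX2 at base 136245841, with 203 of 220 genes lower and a median of -0.58. QSOX2 stood at -0.27 and was followed by CCDC187 and GPSM1 at 1.24 and 0.43. On chromosome 17 it went from MKS1 at base 58205437 to SEPT9 at base 77500596, with 111 of 116 genes lower and a median of -0.57. SRSF1, a splicing factor, and AC015813.6 before it stood at 0.73 and 0.59 and MKS1 at -0.77, and SEPT9 at -0.60 was followed by the noncoding RNAs AC021683.2 and AC021683.1 at 0.39 and 0.62. These edges depend on how a run is ended: with 3 neighbouring higher genes the chromosome 17 run spanned 41.3 Mb in place of 19.1, and with a single higher gene the 4 runs spanned 20.6, 16.7, 14.6 and 10.8 Mb on chromosomes 16, 10, 9 and 17.

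**Figure D4:**
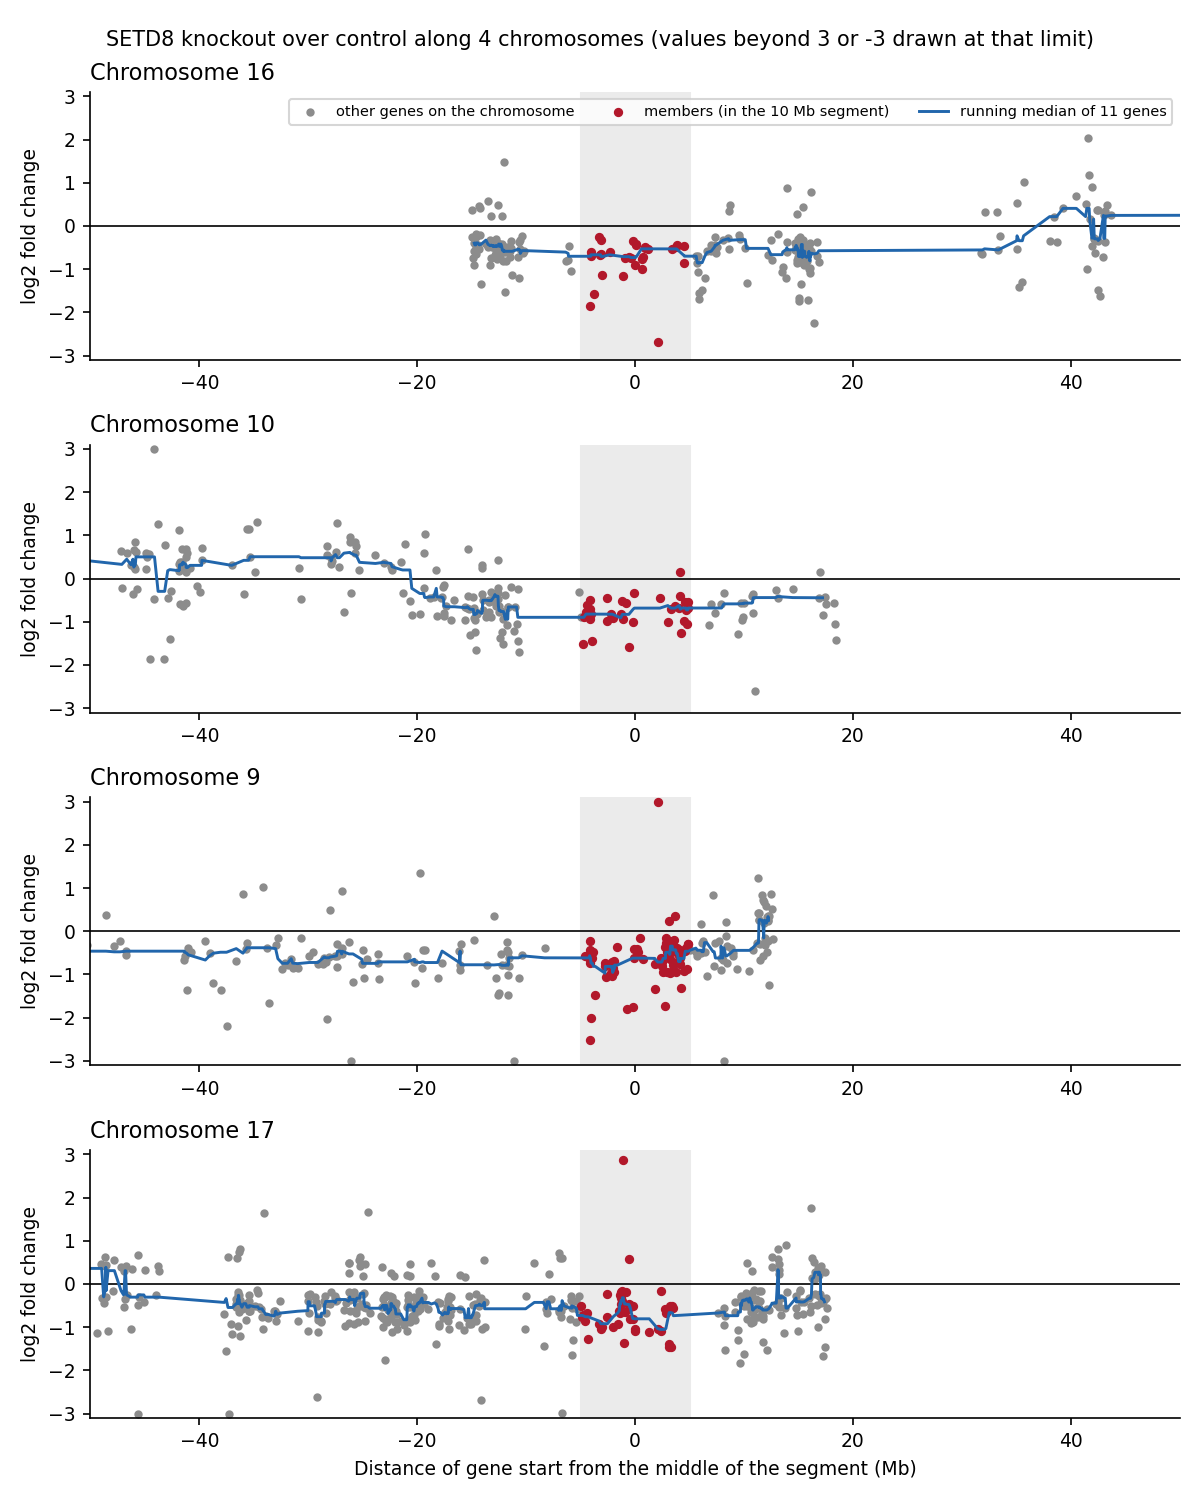
Log2 fold change of each gene with a mean of at least 50 (SETD8 knockout over control) against the distance of its start from the middle of the block in Mb, for the 4 chromosomes. Red points are members in the shaded 10 Mb, grey points other genes of the chromosome, and the blue line is the running median of 11 genes, which stays below 0 through the shaded stretch and beyond it on both sides.

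Around the blocks the share of lower genes changed in steps of different size. On chromosome 16, 65 of 73 genes between 0 and 10 Mb were lower, 41 of 45 between 20 and 30 Mb and 29 of 31 between 30 and 40 Mb, but 16 of 32 between 50 and 60 Mb and 10 of 36 between 60 and 70 Mb. On chromosome 10, 3 of 20 genes were lower between 80 and 90 Mb, 23 of 33 between 90 and 100 Mb, 46 of 49 between 100 and 110 Mb and 17 of 17 between 120 and 130 Mb. The segment with all 17 genes lower adjoins the block and shows a median log2 fold change of -0.58. On chromosome 9, 19 of 20 genes were lower between 110 and 120 Mb and 34 of 54 between 130 and 140 Mb. On chromosome 17, 37 of 43 genes were lower between 50 and 60 Mb, 63 of 73 between 70 and 80 Mb, and 17 of 65 between 0 and 10 Mb.

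Of 122 segments of 10 Mb with at least 20 genes, the 4 blocks had the highest shares of lower genes, which is how they were found. In 5 other segments at least 90% of genes were lower, and all 5 lie on chromosomes 9, 10 and 16. The 20-gene minimum left out smaller segments on other chromosomes. On chromosome 20, 17 of 17 genes between 10 and 20 Mb were lower (median -0.72), and on chromosome 4, 10 of 10 between 110 and 120 Mb (median -0.74). In the other direction, 0 of 10 genes were lower between 10 and 20 Mb of chromosome 5. Over the 118 other segments the median share was 44.2% and the lowest 9.09%. Their interquartile ranges of log2 fold change had a median of 0.80 and a minimum of 0.23. Few genes near 0 are listed, which may widen the ranges of segments with both directions. Of all 122, 5, 16, 30 and 33 had a smaller range than the blocks on chromosomes 16, 10, 9 and 17, so narrow ranges occurred elsewhere too. By median log2 fold change 1, 3, 4 and 6 of the 122 were lower than the blocks on chromosomes 10, 17, 16 and 9.

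Within the blocks the size was followed in steps of 2 Mb. On chromosome 17 the median was -0.86 between 60 and 62 Mb, -0.46 between 62 and 64 Mb, -0.54 between 64 and 66 Mb, -0.85 between 66 and 68 Mb and -0.97 between 68 and 70 Mb. On chromosome 9 the 5 steps ran from -0.81 to -0.49. On chromosome 10 the steps with at least 4 genes ran from -0.83 to -0.68, and on chromosome 16 from -0.71 to -0.49. The steps between 62 and 66 Mb on chromosome 17 hold both of its exceptions and several members near 0, such as the proteasome subunit PSMC5 at -0.17 and LIMD2 at -0.19. PSMD12, another proteasome subunit, stood at -0.17 between 66 and 68 Mb.

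The members are not all genes of these stretches. GENCODE release 29 places 349 protein-coding genes there, of which 180 (51.6%) are listed in the table, against 35.0% of 19515 in the rest of the autosomes and chromosome X. By block, 32 of 71 were listed for chromosome 16, 33 of 60 for chromosome 10, 70 of 136 for chromosome 9 and 45 of 82 for chromosome 17. Another 34 listed rows had a mean below 50, and 27 of them were lower and 7 higher, of which 5 lie on chromosome 9, 1 on chromosome 16 and 1 on chromosome 17. The chromosome 9 block had 10 such rows, 5 lower and 5 higher, so its low-level rows were not mostly lower. The protein-coding ones among the higher were ADGRD2, LHX2 and NR5A1 on chromosome 9 and MAP2K6 on chromosome 17.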

How the data were processed

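RNA was sequenced from 3 SETD8 knockout and 3 control libraries of Kasumi-1 cells. Messenger RNA was enriched with poly-T beads and a directional kit was used, per the labels' protocols. The submitters' processing notes name hg38, HISAT2 and DESeq2; versions, the read counter and its strand setting are unknown here. The deposited values per library are a signal, read counts divided by a size factor by the authors: 100% of values in each library were whole multiples, within 0.001, of what 1 read is worth, although for control 3 and knockout 2 (0.991 and 0.993) this cannot be told from rounding. The authors deposited log2 fold changes and p-values, and the largest deposited unadjusted p-value was 0.049998. Their adjusted p-values imply that 19860 genes were adjusted over.

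The 7516 genes with a mean of at least 10 were fitted on log2(value + 1) with limma-trend (two-sided, version 3.58.1 under R 4.3.3), Benjamini-Hochberg over 19860 genes, threshold 0.05. The fit called 7070 genes; edgeR 4.0.16 and DESeq2 1.42.0 on recovered reads called 3662 lower and 3504 higher, and 3527 lower and 3363 higher. The fit was checked on simulated counts with known changes in which most genes were unchanged. Here 94.1% of the tested genes were called, so that check does not measure the errors of these calls. Within each group the libraries differed beyond counting noise (chi-square per degree of freedom 3.84 to 12.0). The members, role lists and rules were chosen with earlier results of these data known. Named genes were, for each block, all members above 0, the 5 furthest below, the 3 with the highest mean, the 2 closest to the median, 2 genes on each side of each limit, the genes at the run edges, KMT5A, and the most abundant genes of each role list. TXNDC11, MAPKAP1, PKD1P6, NOMO2, RRN3, ABCC6 and the low-level genes ADGRD2, LHX2, NR5A1 and MAP2K6 were named after their values were seen. The first edge of the chromosome 9 run and 1 marker gene are not reported here. Coordinates matched GENCODE release 29 for 7970 of 7983 genes. Alternatives were TMM and upper-quartile scaling, the count models, pseudocounts, filters, a replicate block, leaving out each library, other minimum means and other run rules.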

Additional observations from a re-analysis of the deposited data

How the results depend on the processing

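No median of a block changed sign and no named gene changed direction in any setting run; of 1344 pairs of a named gene and a setting, 34 lost a call and 8 gained one. Counts of called and of lower members stayed within 1.5 times of those reported. Upper-quartile scaling gave block medians of -0.72, -0.81, -0.69 and -0.72 on chromosomes 16, 10, 9 and 17, and moved the median of all genes by -0.054. With a mean of at least 100 the chromosome 10 median was -0.71 and the chromosome 17 run 30.5 Mb, which spanned 41.3 Mb when 3 higher genes ended it. When a single higher gene ended a run, the spans were 20.6, 16.7, 14.6 and 10.8 Mb. With protein-coding genes only, the chromosome 17 interquartile range was 0.47. The cause of these shifts was not tested, beyond the construction of the run rules. Leaving out each library in turn gave medians from -0.69 to -0.63 on chromosome 16, -0.81 to -0.70 on chromosome 10, -0.66 to -0.63 on chromosome 9 and -0.68 to -0.61 on chromosome 17, and interquartile ranges from 0.28 to 0.47, 0.37 to 0.42, 0.47 to 0.53 and 0.46 to 0.56.

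With the replicate number as a block, 172 members were called lower in place of 169 and the medians were unchanged. The numbers did not pair the libraries: same-numbered libraries had correlations of 0.0086, -0.0033 and -0.050 of their deviations from group means. Among genes with a low mean, the call of AC025048.2 ended without knockout 1 or 2 or control 1 or 2, that of DEXI without knockout 1 or 2 or control 1 or 3, and WIPI1 was called only with TMM scaling, upper-quartile scaling or a pseudocount of 5. PTGES2 lost its call with upper-quartile scaling and without control 1 or knockout 1.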
